A study of Mus musculus with 42 samples.

Results

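The amino acid catabolism enzymes described here are 9 genes, Tat, Tdo2, Gpt, Gpt2, Sds, Got1, Hpd, Hgd and Aass, followed in mouse liver under corticosterone with or without androgen receptor blockade. They were selected by gene symbol, with earlier results of these data known, and all 9 were found among the 55573 gene IDs of each of the deposited count tables. All 9 passed the filter on low counts in both tables.

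The liver breaks down most amino acids, first by removing or moving the amino group and then by oxidising the carbon skeleton to intermediates of glucose, ketone or energy metabolism. Tat (tyrosine aminotransferase), Hpd (4-hydroxyphenylpyruvate dioxygenase) and Hgd (homogentisate 1,2-dioxygenase) act one after another on tyrosine, Tdo2 (tryptophan 2,3-dioxygenase) opens the ring of tryptophan, and Aass is the bifunctional enzyme that starts lysine breakdown in mitochondria. Gpt and Gpt2 are the cytosolic and mitochondrial alanine aminotransferases, Got1 is the cytosolic aspartate aminotransferase, and Sds (serine dehydratase) turns serine into pyruvate. Glucocorticoids are known to raise several of these enzymes, Tat and Tdo2 being classical hepatic examples, as part of the supply of carbon for gluconeogenesis.

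Liver mRNA from male C57B6/J mice was sequenced, and the design combines a glucocorticoid with blockade of androgen signalling. Acute treatment had 4 groups of 6 mice: vehicle, corticosterone (CORT, the main glucocorticoid of rodents), enzalutamide (ENZA, an androgen receptor antagonist) and CORT+ENZA. Chronic treatment had 3 groups of 6: vehicle, CORT and CORT+ENZA, and chronic ENZA alone is not analysed here. The labels read here give no dose, route, length of exposure or age, and name no genetic alteration. The arms were extracted with different kits, so arm and kit cannot be told apart in levels. Every change below is within its own table, apart from the differences of effects between the arms. In those, the kit cancels only as far as it acts alike on the groups of an arm. Each library carries its own number and was taken as 1 mouse. Nothing else in the labels says that libraries of a group are separate animals, so p-values measure the spread between these libraries.

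Gene counts per library ran from 18674151 to 20464521 for acute and from 15381724 to 19581723 for chronic treatment, and each mean below rests on n = 6. In a principal component analysis, 4 mice stood off from the rest: L19A (vehicle) and L36A (CORT+ENZA) among the acute, and 11 (vehicle) and 18 (CORT+ENZA) among the chronic mice. Mouse 18 also had the highest sum of 9 Kupffer cell markers of its group, 708 CPM (counts scaled to library size) against a group median of 225. Acute ENZA mouse L29A likewise had 722 CPM against a group median of 236. On the first component it stood at 30.2, beside 37.6 for L19A, and it was left out only in fits without single mice. Where leaving out the 4 mice that stood off changes a call or moves a value by much, both values are given. The sum of 7 hepatocyte markers, none of them at 0, was 63604 to 84421 CPM in chronic CORT+ENZA and 105642 to 125130 CPM in chronic vehicle. These ranges did not overlap. Of the 7 genes 3 were called lower and 0 higher, and 2 had a fold change above 0. The sums of 9 periportal markers, Sds among them, overlapped (6388 to 9606 CPM in vehicle, 7867 to 10347 CPM in CORT+ENZA). So did the sums of 8 pericentral markers (6575 to 17776 and 3697 to 11167 CPM). The part of these sums in the results below was not tested. In bulk liver a change in the number of cells of a type and a change in RNA per cell cannot be told apart.

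In GENCODE M21 (GRCm38) the members are protein-coding genes scattered over 7 chromosomes. Tat (ENSMUSG00000001670) lies on chromosome 8 from 109990437 to 109999803 and Gpt2 (ENSMUSG00000031700) on the same chromosome from 85492576 to 85527560, both on the plus strand. Sds (ENSMUSG00000029597) lies on chromosome 5 from 120476526 to 120483932 on the plus strand, and Hpd (ENSMUSG00000029445) from 123171807 to 123182727 on the minus strand. Got1 (ENSMUSG00000025190) lies on chromosome 19 from 43499752 to 43524605 and Aass (ENSMUSG00000029695) on chromosome 6 from 23072173 to 23132986, both on the minus strand. Tdo2 (ENSMUSG00000028011) lies on chromosome 3 from 81957090 to 81976202 on the minus strand, Gpt (ENSMUSG00000022546) on chromosome 15 from 76695716 to 76699686 and Hgd (ENSMUSG00000022821) on chromosome 16 from 37580153 to 37632020, the last 2 on the plus strand. Sds is the uncertain member: 28.9% of the 50-base stretches of its longest transcript also occur in Plbd2 or Gm15690, and 501 bases of its exons overlap exons on the other strand. The sources used here do not give the strand setting of the counting, so Plbd2 and Gm15690 values stand beside those of Sds below.

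The 250 bases before the RefSeq start are shown for the 3 members that were called in any comparison (Got1, Aass and Gpt2) and for Tat, the textbook glucocorticoid target. They come from RefSeq on GRCm38.p6, read 5′ to 3′ on the gene's strand, with CCAAT boxes on either strand (CCAAT or its reverse complement) in capitals. They cover chr19:43524606-43524855 (minus strand) for Got1, chr6:23132987-23133236 (minus) for Aass, chr8:85492326-85492575 (plus) for Gpt2 and chr8:109990186-109990435 (plus) for Tat.
Got1: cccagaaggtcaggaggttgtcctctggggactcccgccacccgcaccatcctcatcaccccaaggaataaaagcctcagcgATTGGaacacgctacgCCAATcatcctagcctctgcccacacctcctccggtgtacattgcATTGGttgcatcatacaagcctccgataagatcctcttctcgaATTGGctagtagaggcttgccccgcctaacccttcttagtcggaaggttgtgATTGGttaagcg
Aass: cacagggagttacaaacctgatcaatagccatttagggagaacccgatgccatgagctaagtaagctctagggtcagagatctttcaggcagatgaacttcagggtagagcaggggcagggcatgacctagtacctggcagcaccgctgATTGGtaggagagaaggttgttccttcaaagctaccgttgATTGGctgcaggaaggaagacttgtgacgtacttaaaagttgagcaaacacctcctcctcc
Gpt2: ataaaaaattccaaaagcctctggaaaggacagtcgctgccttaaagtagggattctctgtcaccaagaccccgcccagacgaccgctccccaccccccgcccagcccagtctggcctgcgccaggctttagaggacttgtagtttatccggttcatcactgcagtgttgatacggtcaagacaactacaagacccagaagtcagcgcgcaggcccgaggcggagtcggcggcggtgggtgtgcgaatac
Tat: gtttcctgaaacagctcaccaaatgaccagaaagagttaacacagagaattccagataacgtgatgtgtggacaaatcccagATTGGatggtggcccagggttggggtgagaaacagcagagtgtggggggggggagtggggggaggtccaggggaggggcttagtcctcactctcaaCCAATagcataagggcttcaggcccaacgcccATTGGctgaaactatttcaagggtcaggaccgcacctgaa

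A promoter was found in the RefSeq table for 7 of 9 members. Of these, none held the palindromic glucocorticoid response element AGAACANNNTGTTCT (in 0.00913% of 32851 promoters of this length), its single arm AGAACA (16.1%) or the cAMP response element TGACGTCA (1.55%), searched on both strands. The single arm is part of the full element. The absence of a match says only that these letters are not in the window. The CCAAT box, a general promoter motif that was looked for after the sequences had been seen, was in 33.8% of all promoters. Got1 held 5 copies, Tat 3, Aass and Hgd 2 each and Tdo2 1, while Gpt2 and Hpd held 0. The Tdo2 window, 81975729 to 81975978 on chromosome 3, lies inside the GENCODE gene given above, so its motif counts belong to a different transcript start. In Got1 the nearest copy lay 12 to 8 bases before the start, and in Tat 40 to 36 bases before it.

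Per kilobase of exon, Hpd was the most abundant member in acute vehicle liver, at 1151 ± 108 CPM per kb (mean ± SD, n = 6), and no mouse overlapped with the next gene, Tat, at 480 ± 200 CPM per kb. Tdo2 followed at 316 ± 64.6 and Hgd at 206 ± 28.4 CPM per kb. Sds stood at 177 ± 72.7, Got1 at 126 ± 33.2, Gpt at 113 ± 12.5, Gpt2 at 87.5 ± 17 and Aass at 64.5 ± 17.2 CPM per kb. From Tat downward every gene overlapped with the next in this group. In chronic vehicle liver the first 4 places were the same, from Hpd at 1044 ± 167 to Hgd at 238 ± 19.7 CPM per kb, and Hgd did not overlap with Got1, which came next at 128 ± 36.4 CPM per kb. Gpt, Aass and Gpt2 filled the last 3 places at 77.8 ± 15.1, 75.4 ± 10.1 and 74.7 ± 5.86 CPM per kb and overlapped with each other.

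The first comparison asked what acute CORT did to these enzymes. No member was called at an adjusted p under 0.05, although 7 of 9 had a fold change above 0 and Tdo2 was separated from vehicle in every mouse. The share of all genes with such a separation was not computed. The median log2 fold change of the members was 0.31, against -0.01 over all genes tested. Vehicle mouse L19A, which lay apart on the principal components, was the lowest vehicle mouse for Tat, Tdo2, Gpt, Gpt2, Got1, Hgd and Aass. The median without it was not computed. Of 13733 genes, edgeR called 1.62%. At an unadjusted p under 0.05 there were 4 members, Tdo2, Gpt2, Aass and Sds, and 1934 genes in all, while DESeq2 called 0 and limma-voom 1, Tdo2. Over all genes edgeR called 222, DESeq2 432 and limma-voom 346.

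Tdo2, the tryptophan dioxygenase, had 754 CPM in its lowest vehicle mouse, a median of 1268 and a highest value of 1475, against 1484, 1545 and 1732 CPM in CORT. All 6 CORT mice thus lay above all 6 vehicle mice, the closest pair by a few CPM. The log2 fold change was 0.37 ± 0.12 (SE, 95% interval 0.13 to 0.61), and the adjusted p was 0.113 with edgeR and 0.0492 with limma-voom. Vehicle mouse L19A, which lay apart on the principal components, was the lowest, and without it the fold change was 0.26 ± 0.09 (adjusted p = 0.158).

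Tat, the tyrosine aminotransferase, had 783 CPM in its lowest vehicle mouse, a median of 1004 and a highest value of 2094, against 1125, 1603 and 2072 CPM in CORT. The single vehicle mouse L31A was above every CORT mouse, and the other 5 vehicle mice, at 1187 CPM or less, overlapped only with the lowest part of the CORT group. Its log2 fold change was 0.45 ± 0.22 (adjusted p = 0.367), and 0.71 ± 0.20 without L31A (adjusted p = 0.0715). The later steps of tyrosine breakdown were near 0, at 0.03 ± 0.09 for Hpd and -0.01 ± 0.09 for Hgd, with adjusted p-values of 0.926 and 0.986, and the sign of each changed when certain single mice were left out, as did that of Gpt.

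Among the enzymes that feed pyruvate and aspartate carbon, Sds had 186 CPM in its lowest vehicle mouse, a median of 266 and a highest value of 531, against 341, 419 and 558 CPM in CORT, with overlap through vehicle mouse L31A. Its log2 fold change of 0.50 ± 0.22 had an adjusted p of 0.303, while Plbd2, with which it shares sequence, was at 0.03 ± 0.09 (adjusted p = 0.916) and Gm15690 averaged 0.254 CPM in vehicle and 0.25 CPM in CORT. Gpt2, the mitochondrial alanine aminotransferase, stood at 0.31 ± 0.11 (adjusted p = 0.173), and the cytosolic Gpt at -0.02 ± 0.08 (adjusted p = 0.947). Got1 was at 0.20 ± 0.18 (adjusted p = 0.666) and Aass at 0.36 ± 0.14 (adjusted p = 0.202). Without vehicle mouse L19A they were at 0.08 ± 0.16 and 0.24 ± 0.10 (adjusted p = 0.886 and 0.288). Got1 also moved by more than 1.5 times without vehicle L31A (0.31) and without CORT L2A (0.13) or L14A (0.10), and was not called in any of these fits. The 95% interval of every member lay below a doubling, the widest reaching 0.97 on the log2 scale for Sds. In the same mice the steroid receptor cochaperone Fkbp5 rose by 1.26 ± 0.24 (adjusted p = 0.00595), and Tsc22d3, a textbook glucocorticoid target, rose by 0.83 ± 0.17 (adjusted p = 0.0092). They were the 2 called of 13 regulators and glucocorticoid readouts, of which 8 were above 0, with a list median of 0.05.

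**Figure D1:**
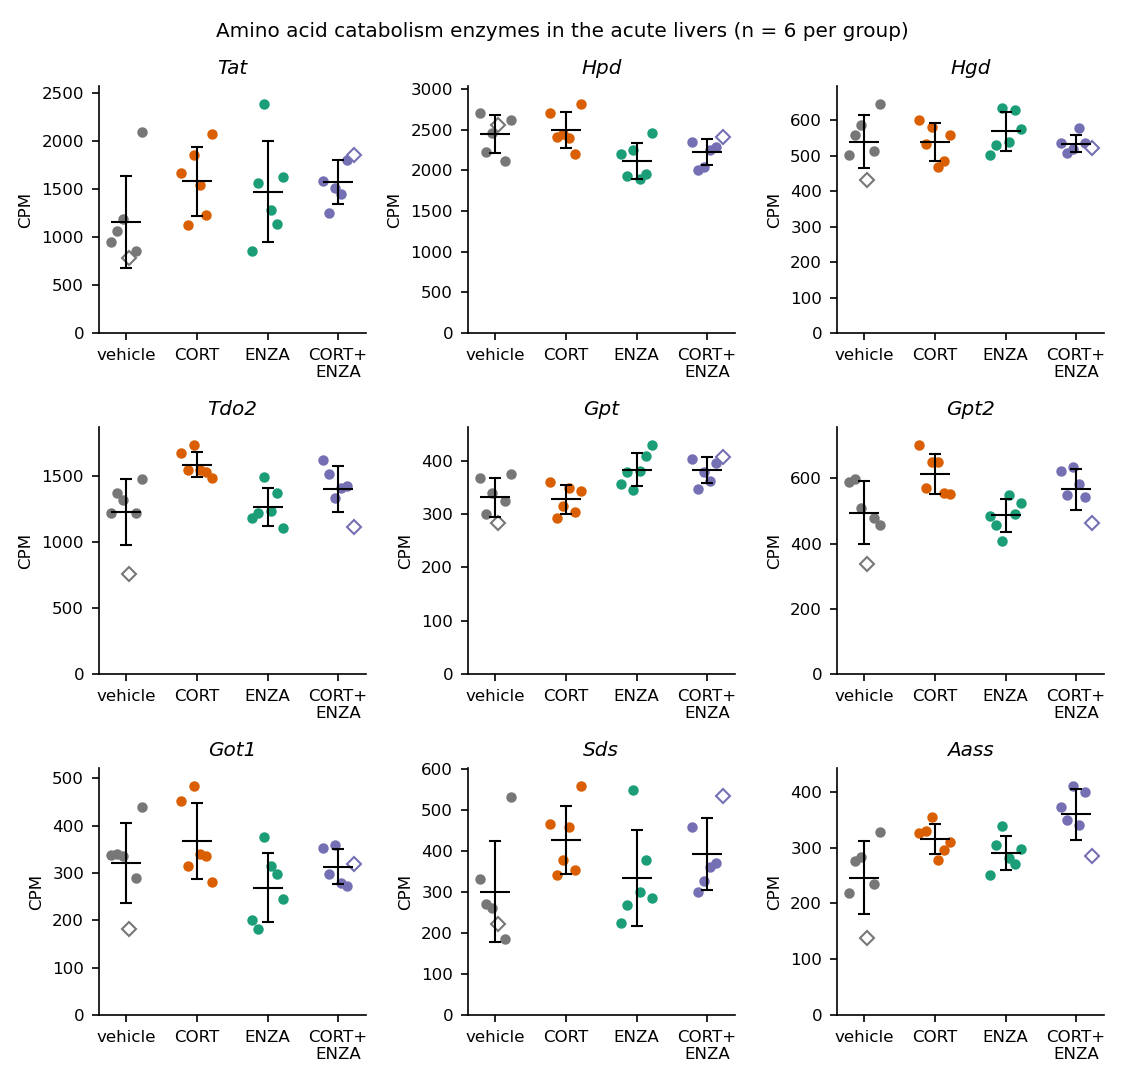
Level of each member in CPM (vertical axis, from 0) in the 24 acute mice by treatment; points are mice, bars are mean and SD, and open diamonds are L19A and L36A. Tdo2 in CORT begins at 1484 CPM, above the highest vehicle mouse at 1475, and the Tat value of 2094 CPM stands apart in vehicle.

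Acute ENZA alone called no member by edgeR, DESeq2 or limma-voom, with 1.31% of all genes called, and 2 members had an unadjusted p under 0.05, as had 2002 of 13733 genes. Gpt had 283, 332 and 376 CPM (lowest, median, highest) in vehicle and 346, 379 and 429 CPM in ENZA, a log2 difference of 0.21 ± 0.08 (adjusted p = 0.22). In 4 of 6 ENZA mice Gpt was above every vehicle mouse. Hpd ran the other way, from 2120, 2509 and 2712 CPM in vehicle to 1896, 2080 and 2463 CPM in ENZA, at -0.21 ± 0.09 (adjusted p = 0.251). The other 7 members lay between -0.25 and 0.35 with adjusted p-values of 0.414 to 0.947.

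With acute CORT+ENZA, Aass rose against vehicle and was the 1 member called, where edgeR called 2.47% of all genes. Aass had 138, 255 and 328 CPM (lowest, median, highest) in vehicle and 285, 361 and 410 CPM in CORT+ENZA. Only the lowest CORT+ENZA mouse, L36A, lay within the vehicle range, and the lowest vehicle mouse was L19A. The log2 fold change was 0.55 ± 0.14 (95% interval 0.27 to 0.83, adjusted p = 0.0266). The call was lost when only the 2 groups compared were fitted (0.55, adjusted p = 0.129) and without vehicle L1A or L25A or CORT+ENZA L6A, L18A or L30A (adjusted p = 0.0518 to 0.0672). Aass stood at 0.36 in CORT alone and at 0.24 ± 0.14 in ENZA alone (adjusted p = 0.414), comparisons that share the vehicle mice.

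Gpt was at 0.20 ± 0.08 in acute CORT+ENZA against vehicle (adjusted p = 0.178), and the other 7 members lay between -0.14 and 0.45 with adjusted p-values of 0.33 to 0.955. Against CORT alone edgeR called 0.175% of all genes and no member, DESeq2 and limma-voom also 0, and 1 member had an unadjusted p under 0.05 (696 of all genes), Gpt at 0.22 ± 0.08 (adjusted p = 0.613). In 5 of 6 CORT+ENZA mice Gpt exceeded every CORT mouse. Against ENZA alone edgeR called 1.81% of all genes and no member, 1 had an unadjusted p under 0.05 (2050 of all genes), and DESeq2 called 0. That member was Aass, at 0.31 ± 0.14 (adjusted p = 0.277), which limma-voom called at 0.34 ± 0.09 (adjusted p = 0.0323) and edgeR at 0.36 ± 0.09 without L19A and L36A (adjusted p = 0.0379).

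The interaction term, which asks whether CORT and ENZA together differ from the sum of their separate effects, called 0% of all genes and no member by edgeR, DESeq2 or limma-voom. No member had an unadjusted p under 0.05, against 501 of 13733 genes. The members lay between -0.36 for Tat and 0.04 for Hpd on the log2 scale, and the 95% interval of Tat ran from -1.01 to 0.30.

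In the chronic arm CORT raised Gpt2, the mitochondrial alanine aminotransferase, and no other member passed the test, where edgeR called 18.3% of all genes. Read against that background, 1 of 9 members is no high share. The readout Fkbp5 rose by 2.89 ± 0.40 on the log2 scale in the same mice (adjusted p = 0.000108). Fkbp5 had 42.7 to 66.1 CPM in vehicle mice 10 to 12, 10 to 15.3 CPM in vehicle mice 13 to 15, and 163 to 314 CPM in CORT. Tsc22d3 was at 0.58 ± 0.26 (adjusted p = 0.143). Its vehicle values were split, with 61.5 to 90.9 CPM in mice 10 to 12 and 172 to 233 CPM in mice 13 to 15. In CORT it had 156 to 236 CPM. Of the 13 regulators and glucocorticoid readouts 5 were called higher and 1 lower, with 10 above 0 and a list median of 0.27. Of the members 8 of 9 had a fold change above 0, with a median of 0.17 against -0.01 over all genes. Vehicle mouse 13 was the lowest of its group for Tdo2, Gpt, Gpt2, Sds, Hpd, Hgd and Aass. For the same genes CORT mouse 2 was the highest of its group. Tat and Got1 had other mice at these places. The median without these mice was not computed.

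Gpt2 had 377, 421 and 457 CPM (lowest, median, highest) in chronic vehicle and 431, 519 and 663 CPM in CORT. In 5 of 6 CORT mice it lay above every vehicle mouse, and the sixth, mouse 1, lay within the vehicle range. Gpt2 rose by 0.32 ± 0.10 on the log2 scale (95% interval 0.13 to 0.52, adjusted p = 0.0226). The call was lost without vehicle mouse 13 (0.29, adjusted p = 0.0558) or CORT mouse 2 (0.25, adjusted p = 0.058), which held the lowest vehicle and the highest CORT value.

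Got1, the cytosolic aspartate aminotransferase, had 231, 325 and 486 CPM in chronic vehicle and 98.5, 247 and 282 CPM in CORT. All 6 CORT mice were below the vehicle mean, and 2 of them, mice 1 and 25, were below every vehicle mouse. The log2 fold change of -0.64 ± 0.27 missed the threshold (adjusted p = 0.102). Aass was at 0.29 ± 0.11 (adjusted p = 0.0823) and was called by DESeq2 (0.30, adjusted p = 0.0449), by limma-voom (0.35, adjusted p = 0.0104), without vehicle mouse 11 and CORT+ENZA mouse 18 (0.35, adjusted p = 0.00629), and without vehicle mouse 11 (adjusted p = 0.0348) or CORT mouse 25 (adjusted p = 0.0377) alone. Sds was at 0.44 ± 0.20 (adjusted p = 0.136) and was called without vehicle mouse 12 (0.61, adjusted p = 0.0299), and its sequence partner Plbd2 was at 0.13 ± 0.09 (adjusted p = 0.364). Gm15690 had 0.244 CPM or less in every chronic mouse.

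The classical targets were not called after chronic CORT. Tat had 751, 1451 and 1978 CPM in vehicle and 982, 1632 and 1983 CPM in CORT, nearly the same range, with a log2 fold change of 0.12 ± 0.23 (95% interval -0.36 to 0.61, adjusted p = 0.755). Without vehicle mouse 11, which held the lowest Tat value, that estimate was -0.0048. Tdo2 had 941, 1396 and 1764 CPM in vehicle and 1366, 1566 and 1970 CPM in CORT, at 0.20 ± 0.14 (adjusted p = 0.33), and 0.11 without vehicle mouse 13. Gpt was at 0.17 ± 0.15, Hpd at 0.13 ± 0.14 and Hgd at 0.10 ± 0.09, with adjusted p-values of 0.454, 0.575 and 0.493. Gpt was at 0.09 without vehicle mouse 13 and at 0.11 without CORT mouse 2.

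Tdo2 in the chronic arm followed the mouse numbers in the labels, a pattern noticed after its values had been seen. In each of the 3 groups the 3 mice with numbers of 12 or less were all above the 3 with numbers of 13 or more. The lower numbers held 1594 to 1764 CPM in vehicle, 1714 to 1970 in CORT and 1426 to 1568 in CORT+ENZA. The higher numbers held 941 to 1198, 1366 to 1417 and 1258 to 1402 CPM in the same groups. Such a separation in 1 direction in all 3 groups was seen in 51 of 13099 genes (0.389%), and in no other member. In single groups, Gpt also separated with the lower numbers above, and Sds with the lower numbers below. Got1 had the lower numbers below in vehicle and CORT+ENZA and overlapped in CORT, and Tat had the lower numbers below in CORT alone. The labels do not say what a number stands for. With the number range as a term, a setting added after the data were seen, Tdo2 under CORT stood at 0.22 ± 0.09 (adjusted p = 0.0894).

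**Figure D2:**
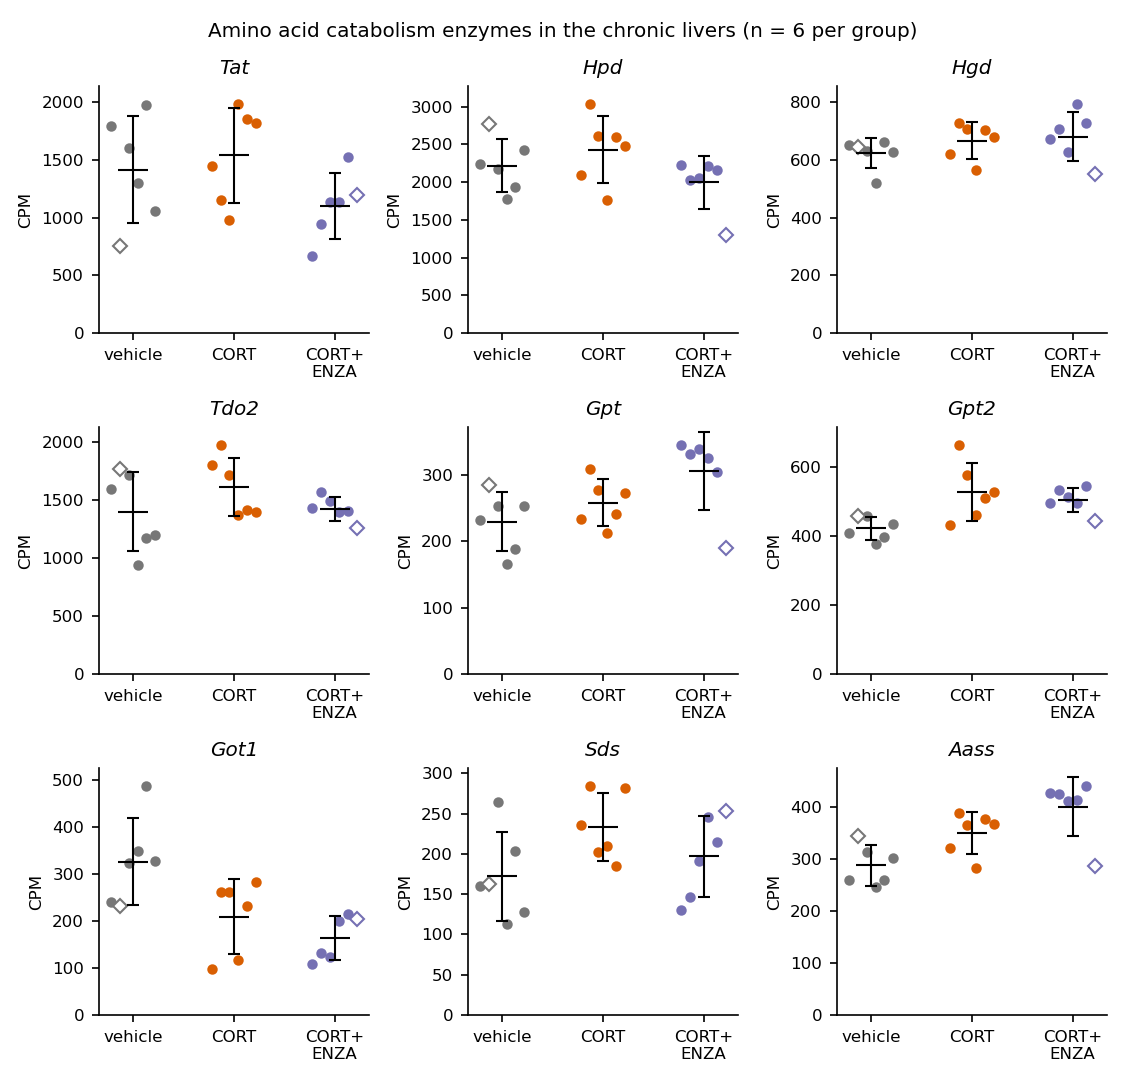
Level of each member in CPM (vertical axis, from 0) in the 18 chronic mice by treatment, in order of mouse number from left to right within a group; points are mice, bars are mean and SD, and open diamonds are mice 11 and 18. Got1 in CORT+ENZA stays at 214 CPM or less, below all vehicle mice, and mouse 18 is the lowest of its group for Tdo2, Gpt, Gpt2, Hpd, Hgd and Aass.

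Chronic CORT+ENZA lowered Got1 and raised Aass against vehicle, and the other 7 members were not called, where edgeR called 18.6% of all genes. The members' median log2 fold change was 0.13, against -0.01 over all genes. Got1 had 231, 325 and 486 CPM (lowest, median, highest) in vehicle and 109, 165 and 214 CPM in CORT+ENZA. The groups did not overlap, and all 6 treated mice lay below all 6 vehicle mice. How many of all genes were separated in this way was not counted. The log2 fold change was -0.99 ± 0.27 (95% interval -1.55 to -0.43, adjusted p = 0.014), and with no filter on low counts, where 27099 genes were tested, it was -0.98 ± 0.29 (adjusted p = 0.0522).

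Aass, the entry enzyme of lysine breakdown, had 246, 282 and 345 CPM in vehicle and 286, 420 and 440 CPM in CORT+ENZA. Mouse 18 was the lowest and lay within the vehicle range, and the other 5, at 412 CPM or more, were above every vehicle mouse. Aass rose by 0.48 ± 0.11 on the log2 scale (95% interval 0.24 to 0.71, adjusted p = 0.00505). Leaving out any single mouse of the 2 groups kept both calls, and so did leaving out mice 11 and 18 together. The hepatocyte marker sum was lower in this group without overlap, as given above, and mouse 18, lowest for Aass, had the highest sum of its group, 84421 CPM.

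The alanine aminotransferases lay just outside the threshold in this comparison. Gpt had 166, 242 and 284 CPM in vehicle and 189, 328 and 344 CPM in CORT+ENZA, at 0.41 ± 0.15 (adjusted p = 0.0534), and Gpt2 had 377, 421 and 457 against 444, 504 and 546 CPM, at 0.26 ± 0.10 (adjusted p = 0.0639). In 5 of 6 treated mice each gene was above every vehicle mouse, the exception being mouse 18. Without mouse 18 both were called, Gpt at 0.52 ± 0.12 (adjusted p = 0.00437) and Gpt2 at 0.29 ± 0.10 (adjusted p = 0.0352). DESeq2, limma-voom and the fit with the number range as a term also called both, so that 4 members passed there. Of all 13099 genes these settings called 2800, 3833 and 2780, where the main fit called 2434. RLE size factors called Gpt (adjusted p = 0.0483) and not Gpt2, and the fit of only the 2 groups called Gpt2 (adjusted p = 0.0401) and not Gpt. The remaining 5 members lay between -0.36 for Tat and 0.20 for Sds with adjusted p-values of 0.306 to 0.92, while Plbd2, the sequence partner of Sds, rose by 0.41 ± 0.09 (adjusted p = 0.0041).

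With ENZA added to chronic CORT no member was called by edgeR, DESeq2 or limma-voom, where edgeR called 11.8% of all genes, and 1 member had an unadjusted p under 0.05, as had 3476 of 13099 genes. That member was Tat, with 982, 1632 and 1983 CPM in CORT and 668, 1134 and 1525 CPM in CORT+ENZA. The groups overlapped widely, all 6 CORT+ENZA mice were below the CORT mean, and the log2 difference was -0.49 ± 0.23 (95% interval from -0.97 to just under 0, adjusted p = 0.188). Gpt stood at 0.25 ± 0.15 (adjusted p = 0.3) and Aass at 0.19 ± 0.11 (adjusted p = 0.285). Without mice 11 and 18 these 2 were called, Gpt at 0.34 ± 0.11 (adjusted p = 0.0493) and Aass at 0.27 ± 0.09 (adjusted p = 0.0499). In 5 of 6 CORT+ENZA mice Aass exceeded every CORT mouse. The other 6 members lay between -0.35 and 0.03 with adjusted p-values of 0.223 to 0.891.

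**Figure D3:**
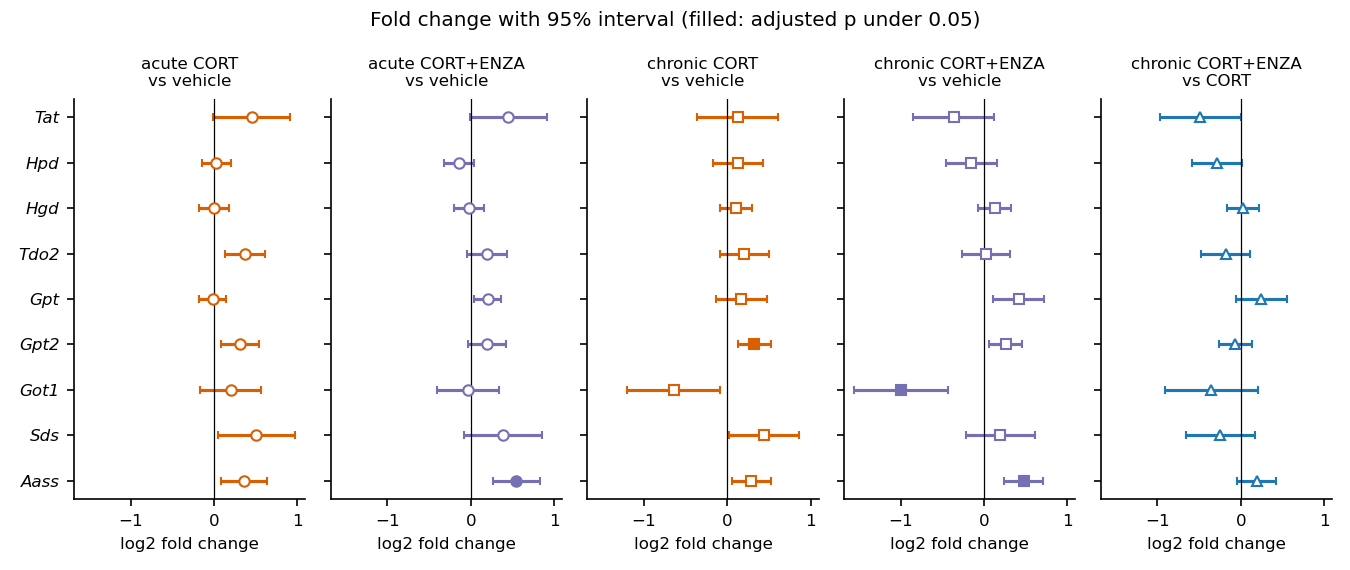
Log2 fold change of each member (horizontal axis) with its 95% interval in 5 comparisons; filled symbols have an adjusted p under 0.05 in edgeR. The filled symbols are Aass in both CORT+ENZA comparisons with vehicle (0.55 and 0.48), Gpt2 in chronic CORT (0.32) and Got1 in chronic CORT+ENZA (-0.99).

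Whether the CORT effect differed between the arms was tested as a difference of effects, in which edgeR called 6.17% of 14138 genes and no member, DESeq2 and limma-voom also 0, and 1 member had an unadjusted p under 0.05 (2895 of all genes). The difference was fitted over all 42 libraries together, so it need not equal the gap between the effects of the separate fits. Any part of the extraction kits in it was not tested. Got1 had the largest difference among the members, -0.81 ± 0.32 (adjusted p = 0.131), where the separate fits gave 0.20 and -0.64. The other 8 lay between -0.29 and 0.22 with adjusted p-values of 0.49 to 0.969. The call of Gpt2 in the chronic and not the acute arm is not a shown difference: its effects were 0.32 and 0.31, and the difference was 0.05 ± 0.15 (95% interval -0.26 to 0.35, adjusted p = 0.906). For the effect of ENZA on top of CORT, 1.27% of all genes and no member were called by edgeR, DESeq2 and limma-voom called 0 as well, and no member had an unadjusted p under 0.05, against 1914 of all genes. The members lay between -0.51 for Tat and 0.02 for Gpt2, with intervals reaching -1.18 for Tat.

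Some pairs of members also varied together from mouse to mouse within groups. Deviations of log2 CPM from the group mean were correlated for all 36 pairs in each arm, with permutation p-values adjusted over the 72 pairs. The points share libraries and their scaling. The same counts over pairs of all genes were not computed, so those below are not shown to be particular to the members. In the acute arm 31 of 36 r were above 0 and 8 pairs passed on both Pearson's and Spearman's measure, and in the chronic arm 25 of 36 were above 0 and 7 pairs passed on both. The unadjusted permutation p of r ran from 0.00027 to 0.0123 over those 8 acute pairs and from 2e-05 to 0.00129 over those 7 chronic pairs.

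In the acute arm Tat went with Sds over 24 mice (r = 0.788, rho = 0.683, adjusted permutation p = 0.00232 and 0.011). Without the 2 mice farthest on Tat, r was 0.554 (adjusted permutation p = 0.068). Leaving out the mice farthest on a gene narrows its range, which by itself can lower r. Without L19A and L36A r was 0.774 (adjusted permutation p = 0.0155). Tdo2 went with Got1 (r = 0.721, rho = 0.66, adjusted permutation p = 0.00312 and 0.011) and still did without the 2 farthest mice (r = 0.693, adjusted permutation p = 0.0256). Tdo2 and Aass had the highest acute value (r = 0.84, rho = 0.633, adjusted permutation p = 0.00295 and 0.0209), and r was 0.505 without the 2 farthest mice, here also L19A and L36A (adjusted permutation p = 0.122). Tdo2 and Hgd kept r = 0.619 without them (adjusted permutation p = 0.044), from r = 0.698 and rho = 0.609 over all mice (adjusted permutation p = 0.00312 and 0.017).

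In the chronic arm 6 of the 7 pairs lay among Gpt, Gpt2, Hpd and Aass. Hpd went with Aass over 18 mice (r = 0.941, rho = 0.781, adjusted permutation p = 0.0012 and 0.00918), Gpt with Hpd (r = 0.922, rho = 0.8) and Gpt with Aass (r = 0.907, rho = 0.746). Gpt2 went with Hpd (r = 0.782, rho = 0.699), Aass (r = 0.759, rho = 0.789) and Gpt (r = 0.745, rho = 0.763). Over these 6 pairs the adjusted permutation p ran from 0.00072 to 0.00232 for r and from 0.00918 to 0.0223 for rho. They stayed past the threshold without the 2 farthest mice, without mice 11 and 18, and with the number ranges centred separately. For Hpd and Aass those values were 0.852, 0.873 and 0.938. The seventh pair, Tdo2 and Gpt (r = 0.681, rho = 0.662, adjusted permutation p = 0.00663 and 0.0395), did not pass without the 2 farthest mice (r = 0.529, adjusted permutation p = 0.0814) or without mice 11 and 18 (r = 0.7, adjusted permutation p = 0.0871). Tat had negative r with Gpt, Gpt2, Hpd and Aass in the chronic arm, from -0.484 to -0.367, and none of them passed. Hgd had r from 0.65 to 0.817 with the same 4 genes. Its pairs with them passed on r (adjusted permutation p = 0.00232 to 0.013) and not on rho (adjusted permutation p = 0.0509 to 0.357). Whether a pair differed between the arms was not tested.

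**Figure D4:**
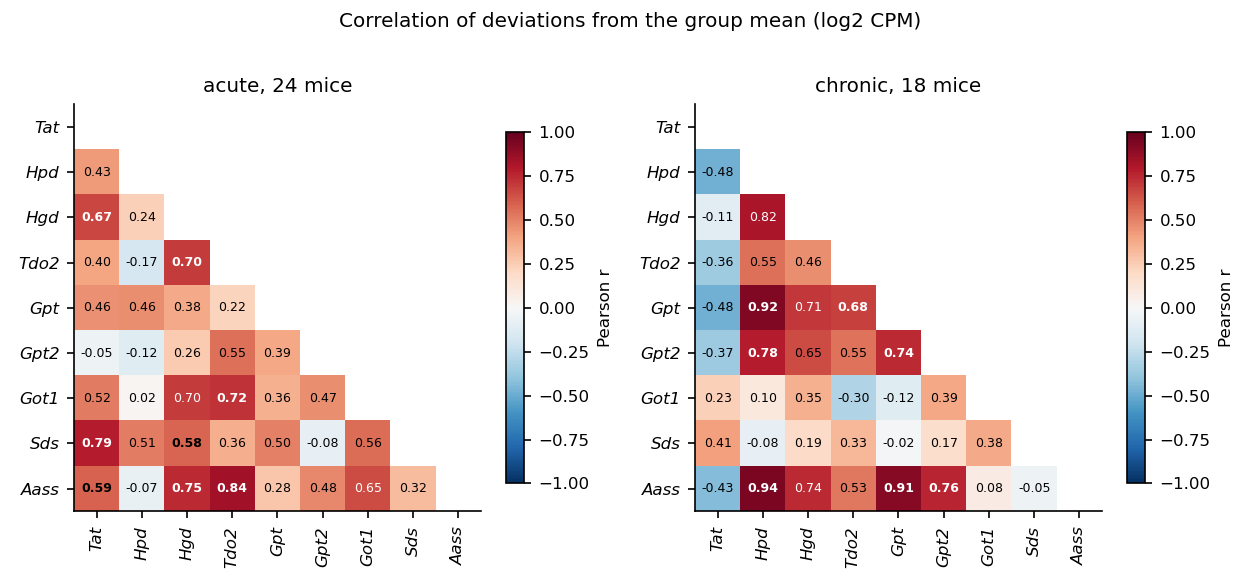
Pearson r of within-group deviations of log2 CPM for each pair of members in the 24 acute (left) and 18 chronic mice (right), coloured from -1 to 1; bold values passed on both Pearson's and Spearman's measure. In the chronic mice Gpt, Gpt2, Hpd and Aass form a block from 0.745 to 0.941, and in the acute mice the bold values join Tat, Sds, Hgd, Tdo2, Got1 and Aass.

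Over all mice of an arm, with group differences left in, the gene whose pattern was most like acute Sds was Sdsl, a serine dehydratase-like enzyme (r = 0.876, 24 mice), followed by Tat (r = 0.818). The gene nearest to Tat was in turn Sds. For Gpt2 the next were Wbp1l (r = 0.865), Fkbp5 (r = 0.829) and Hnf4a (r = 0.822), and for Tdo2 Slc25a15, a mitochondrial ornithine carrier (r = 0.895). In the chronic arm the nearest to Gpt was Aass (r = 0.912, 18 mice), to Hpd Hsd17b10 (r = 0.921), to Got1 Accs (r = 0.905) and to Tat Sesn2 (r = 0.835). These are the highest values out of all named genes and carry no test.

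The rest of amino acid catabolism was read from 9 lists of genes, which hold 73 genes besides the members, 70 of them tested. Some genes are in more than 1 list, such as Aadat in the tryptophan, transaminase and lysine lists, so counts per list are not separate. Acute CORT called 0 of 70 by edgeR, with 6 at an unadjusted p under 0.05. Acute ENZA called 1, Ido2, a tryptophan-degrading dioxygenase (0.35 ± 0.08, adjusted p = 0.0294), and acute CORT+ENZA against vehicle called 1, Bcat2, the mitochondrial branched-chain aminotransferase (-0.54 ± 0.15, adjusted p = 0.0466). Chronic CORT called 14 of 70 (20%), 11 higher and 3 lower, near the 18.3% of all genes. Chronic CORT+ENZA against vehicle called 21 (30%), 11 higher and 10 lower, beside 18.6% of all genes. Against CORT it called 14 (20%), 6 higher and 8 lower, beside 11.8% of all genes. Whether these shares differ from those of all genes was not tested.

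In the methionine and cysteine list chronic CORT raised 4 of 8 genes. Ahcy, which splits S-adenosylhomocysteine, rose by 0.88 ± 0.16 (adjusted p = 0.000799), Csad, an enzyme of taurine synthesis, by 1.43 ± 0.30 (adjusted p = 0.00325), and Bhmt, which remethylates homocysteine, by 1.07 ± 0.25 (adjusted p = 0.00681). The list's median was 0.30. For Ahcy and Csad the CORT effect was larger in the chronic than in the acute arm, by 0.82 ± 0.18 (adjusted p = 0.00376) and 1.59 ± 0.37 (adjusted p = 0.00658). The same held for Afmid, the formamidase that follows Tdo2 (0.72 ± 0.18, adjusted p = 0.0104). The limit from the extraction kits applies to these differences. Among serine and glycine genes Gldc, of the glycine cleavage system, rose by 0.66 ± 0.13 (adjusted p = 0.0018) and Sdsl by 0.50 ± 0.17 (adjusted p = 0.0467). The transaminase list held 1 called gene besides the members, Agxt, the alanine-glyoxylate aminotransferase, which fell (-0.82 ± 0.20, adjusted p = 0.00876).

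Under chronic CORT+ENZA most other genes of tryptophan breakdown changed against vehicle, and Tdo2 itself was at 0.03 ± 0.14 (adjusted p = 0.92). Of the 7 other genes of the tryptophan list 5 rose and 1 fell against vehicle. Afmid rose by 0.72 ± 0.15 (adjusted p = 0.00221), Acmsd, which diverts the pathway from NAD synthesis, by 0.83 ± 0.19 (adjusted p = 0.00534), and Haao fell (-0.35 ± 0.10, adjusted p = 0.0194). Among the transaminases other than the members, a list that shares Aadat with the tryptophan list, 1 rose and 3 fell. Kyat1 was at -0.46 ± 0.09 (adjusted p = 0.00117). Cbs, the entry enzyme of transsulfuration, fell against vehicle (-0.77 ± 0.10, adjusted p = 1.76e-05) and against CORT (-0.53 ± 0.10, adjusted p = 0.00146), comparisons that share the CORT+ENZA mice. In the tyrosine list, Qdpr, which regenerates the cofactor of phenylalanine hydroxylase, fell against vehicle (-0.57 ± 0.11, adjusted p = 0.000965), and none of the other 4 genes besides the members was called.

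**Figure D5:**
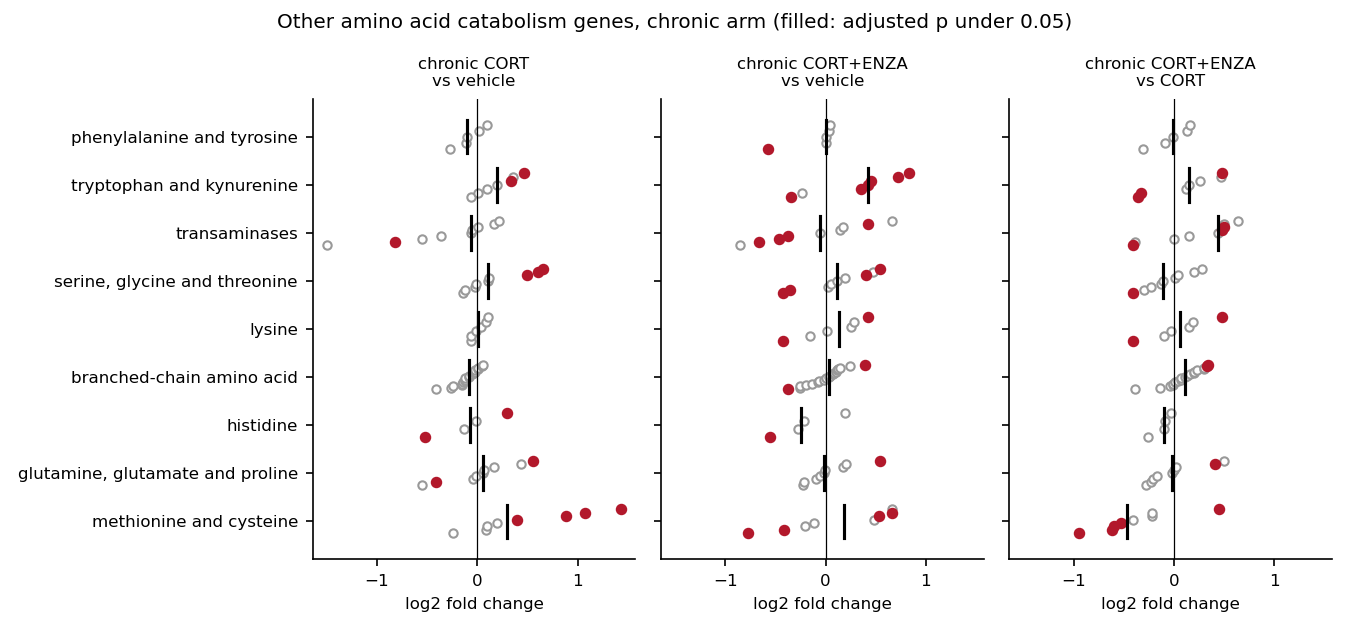
Log2 fold change (horizontal axis) of the tested genes of 9 amino acid lists, without the members, in the 3 chronic comparisons; points are genes, filled where the adjusted p was under 0.05, and bars are list medians. The methionine and cysteine list has its median at 0.30 in CORT against vehicle and at -0.47 in CORT+ENZA against CORT.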

How the data were processed

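The authors deposited 2 tables of gene counts, 1 per arm, with 55573 Ensembl IDs. Per the submitters' processing notes they used FastQC, MultiQC, STAR 2.7.3a, HTSeq 0.12.4 and the mm10 build; the sources used here give neither the annotation release nor the strand setting. Symbols, positions and exon lengths came from GENCODE M21, which matched 55480 IDs. Rows that name no gene were left out.

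Genes were filtered per table with filterByExpr (minimum count 10, minimum total 15), scaled by TMM and fitted with edgeR 4.0.16 quasi-likelihood (R 4.3.3) on group means, all groups of an arm sharing the spread. Differences between arms came from 1 fit of all 42 libraries. Benjamini-Hochberg adjustment ran over all genes of a comparison, with calls at 0.05. CPM are TMM-scaled. Pair correlations used 100000 permutations within groups (scipy 1.17.1, numpy 2.4.6). Intervals cover the spread between libraries. No repeated library was seen: the smallest chi-square per degree of freedom between libraries of a group was 10.2.

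Alternatives were DESeq2 1.42.0, limma-voom (limma 3.58.1) with quality weights, RLE size factors, no and a stricter count filter (CPM of 1 in 6 libraries), sets of consecutive acute numbers as a term, only the groups compared, mice left out, and, added after seeing the data, chronic number ranges. Named genes were the 9 members, at most the 4 called genes of smallest p per list and comparison, a list of glucocorticoid readouts, and the 3 nearest patterns per member. The members and lists were chosen with earlier results of these data known. The fit was checked on simulated data.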

Additional observations from a re-analysis of the deposited data

Results flagged for a closer look

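Each member was examined in each group of 6 for a mouse that lies apart from the other 5 (63 groups in all; chance flags about 1 in 20 groups), and 6 were found. In acute vehicle, mouse L31A had the highest Tat value, 2094 CPM, with the next mouse at 1187, and mouse L19A had the lowest Tdo2 value, 754 CPM, with the next at 1219. In chronic vehicle, mouse 13 had the lowest Hgd value, 521 CPM against 628 for the next.

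Mouse 18 accounts for the other 3, all in chronic CORT+ENZA and all the lowest of the group. It had 189 CPM of Gpt against 304 for the next mouse, 1297 CPM of Hpd against 2031, and 286 CPM of Aass against 412. Mouse 18 was also the lowest of its group, without a flag, for Tdo2 (1258 CPM), Gpt2 (444 CPM) and Hgd (550 CPM). It was the highest for Sds (253 CPM). The same mouse had the highest Kupffer cell marker sum (708 CPM, group median 225), the highest stellate cell marker sum (546 CPM, group median 279) and the lowest pericentral marker sum (3697 CPM, group median 9336) of its group. Its hepatocyte marker sum, 84421 CPM, was the highest of the group. The part of these values in the low Gpt, Hpd and Aass levels was not tested.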

How the results depend on the processing

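Of 11 comparisons, 5 had 0 members called under every alternative run: acute ENZA against vehicle, acute CORT+ENZA against CORT, the interaction and both differences between arms. In acute CORT against vehicle limma-voom called 1 (Tdo2), and every other setting 0. In acute CORT+ENZA against ENZA limma-voom and the fit without L19A and L36A called 1 (Aass). Of all 13733 genes limma-voom called 603 there, and the main fit 248. In acute CORT+ENZA against vehicle the count was 0 with only the 2 groups compared, and 0 to 1 with single mice left out. In chronic CORT against vehicle DESeq2, limma-voom and the fit without mice 11 and 18 called 2 (Gpt2 and Aass), and leaving out single mice gave 0 to 2. Of all 13099 genes DESeq2 called 2810 and limma-voom 3167, where the main fit called 2401. In chronic CORT+ENZA against vehicle DESeq2, limma-voom, the fit without mice 11 and 18 and the number range term called 4, RLE size factors called 3 (Gpt, Got1 and Aass), the fit of only the 2 groups compared 3 (Gpt2, Got1 and Aass), no low-count filter called 1 (Aass), and leaving out single mice gave 2 to 4. Of 13099 genes the main fit called 2434, DESeq2 2800, limma-voom 3833, the number range term 2780 and RLE size factors 2457. With no low-count filter 1915 of 27099 genes were called. In chronic CORT+ENZA against CORT the fit without mice 11 and 18 called 2 (Gpt and Aass). Pairs of members past the threshold numbered 22 on Pearson's r and 9 without the 2 farthest mice. That setting has fewer mice and also drops the most extreme values of the first gene of a pair. The cause of these changes in counts was not tested.

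Of 254 single values recomputed under whole settings 232 kept direction and side of the threshold, and 2 turned direction: Hgd under acute CORT with no low-count filter (0.002977) and Tat under chronic CORT without mice 11 and 18 (-2.061e-05). With single mice left out 371 of 396 were unchanged in that sense, and 12 turned direction, all of uncalled members near 0 under CORT. Gpt in acute CORT vs vehicle ranged from -0.06004 to 0.02114. Hgd in acute CORT vs vehicle ranged from -0.06208 to 0.05223. Hpd in acute CORT vs vehicle ranged from -0.00912 to 0.06277. Tat in chronic CORT vs vehicle ranged from -0.004809 to 0.2469. The groups share no mouse numbers in the labels, so mice could not be paired by number. Sets of consecutive acute numbers, which the labels do not call batches, kept every acute count as a term, with Aass in CORT+ENZA against vehicle at 0.57 (adjusted p = 0.0131). With 6 mice a group, standard errors of 0.08 to 0.27 in comparisons of 2 groups, and of 0.11 to 0.32 for the interaction, limit what could be detected within an arm.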
